A study of Mus musculus with 10 samples.

Results

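The 35 genes described here encode the machinery that copies DNA in S phase, from the MCM2-7 helicase to the E2F factors that switch its genes on. They, and the other lists below, were drawn up by function with earlier results of these data known. Counts of calls in these lists are therefore descriptions and not independent tests. Each of the 35 genes was found in the mRNA table among 23360 named genes. Orc1 and Orc6 stood under older symbols and the Lig1 row used had a blank one, so that these 3 were found by transcript accession. Each gene is represented by its transcript with most counts. The libraries came from heart ventricles of C57BL/6 mice, either Trbp-cKO, a conditional knockout of Trbp (gene symbol Tarbp2, which binds double-stranded RNA and works with Dicer), or wild type (WT). At 2 weeks of age, 2 Trbp-cKO and 2 WT libraries of messenger RNA were made. At postnatal day 2.5, small RNA was sequenced from 3 Trbp-cKO and 3 WT samples. The Cre driver of the knockout is not given in the sources used here. Whether each replicate is another animal is not stated, so p-values measure only the spread between these libraries, which may be technical.

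A chromosome is copied from origins that are licensed in G1, when the origin recognition complex with CDC6 and CDT1 loads the MCM2-7 ring onto DNA. In S phase CDC45 and GINS turn that ring into an active helicase, DNA polymerases copy both strands with the sliding clamp PCNA, and new histones are laid down behind the fork. Most of these genes are E2F targets that are transcribed as a cell passes from G1 into S phase, and heart muscle cells of the mouse largely leave the cell cycle soon after birth.

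The mRNA libraries held 10151184 to 13540495 counts, and the small RNA libraries 2201143 to 3885375. Levels are CPM, the share of a library's counts scaled to a common total with TMM factors. A change is the log2 of Trbp-cKO over WT ± its standard error (SE). A gene is called at an adjusted p under 0.05 in edgeR's quasi-likelihood test over 13625 genes, which called 4.20% lower and 5.17% higher. Tarbp2, the targeted gene, was at 3.87 and 3.89 CPM in the Trbp-cKO libraries, against 12.7 and 11.5 CPM in the WT libraries, a change of -1.64 ± 0.17 on the log2 scale (edgeR adjusted p = 0.000653). Cardiomyocyte markers were abundant in every library, with Myh6 at 42540 and 44260 CPM in Trbp-cKO and 33181 and 33037 CPM in WT, and 4 of the 9 rose while Myl2 fell. None of these 5 calls held when either WT library was left out (edgeR adjusted p from 0.1099 to 0.404). The 5 atrial markers summed to 191 and 607 CPM in Trbp-cKO libraries 1 and 2, against 82.5 and 82.3 CPM in WT. Only 3 of the 5 passed the filter on low counts, and none of these was called. Most of the atrial sum was Nppa, the atrial natriuretic peptide gene, at 173 and 577 CPM in Trbp-cKO and 68.9 and 66.4 CPM in WT. The Nppa change was 2.47 ± 0.88 (edgeR adjusted p = 0.307), and DESeq2 called it (adjusted p = 0.0319). It was 3.09 without Trbp-cKO replicate 1 and 1.35 without replicate 2. Stard10 was at 0.68 ± 0.20 (edgeR adjusted p = 0.0862, and 0.0351 with no filter), and at 0.95 without Trbp-cKO replicate 1. Of 5 tested erythroid markers 3 fell, and the sum of all 8 was 917 and 793 CPM in Trbp-cKO, against 1209 and 1464 CPM in WT. Of 8 fibroblast markers 3 fell (sums of 2547 and 2920 CPM in Trbp-cKO, 3423 and 3106 CPM in WT), and of 9 endothelial markers 1 rose (sums of 1803 and 1779 CPM in Trbp-cKO, 1713 and 1690.4 CPM in WT). None of 8 smooth muscle and pericyte markers was called, with sums of 1496 and 2203 CPM in Trbp-cKO and 1801 and 2053 CPM in WT. None of 9 tested leukocyte markers was called either, with sums of 123 and 125 CPM in Trbp-cKO and 107 and 115 CPM in WT. The erythroid, fibroblast and endothelial calls were each lost when 1 or more single libraries were left out, from adjusted p 0.0539 to 0.291 in edgeR. For the fibroblast genes Col1a1 and Postn these were WT libraries only. With transcript rows summed, the erythroid genes Hba-a1 (-0.23, edgeR adjusted p = 0.529) and Hbb-bt (0.0607) and the fibroblast gene Col3a1 (0.0539) were not called. DESeq2 did not call the erythroid genes Alas2 (adjusted p = 0.0529) and Hbb-bt (0.236) or the endothelial gene Tek (0.106). No marker was at 0 in all libraries, and the part of these cell types in the results below was not tested.

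In Trbp-cKO ventricles 18 of the 35 replication transcripts fell. All 35 genes passed the filter on low counts, none rose and 17 did not pass, where 4.20% of all tested genes were called lower and 5.17% higher. The median log2 fold change was -0.93, against 0.00 over all tested genes, and 34 of the 35 were below 0. Among the 18 that fell, the fall ranged from 1.37-fold to 3.78-fold. In 32 of the 35 both Trbp-cKO libraries lay below both WT libraries, a pattern found in 27.1% of all tested genes. Summed over the 35 genes, the libraries stood at 170.1 and 170.5 CPM in Trbp-cKO and at 294 and 310.1 CPM in WT. In ventricle tissue, fewer cells in S phase and less of these transcripts per cell cannot be told apart. Single-library levels of these genes were low, from 3 to 395 counts, which limits the precision of each value.

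The count of 18 depended on both WT libraries. Without WT replicate 1 the number of replication genes that fell was 5, with 0.943% of all genes called lower, and without WT replicate 2 it was 2 (Mcm2 and Mcm5), with 1.02% of all genes. It was 12 without Trbp-cKO replicate 1 (3.31% of all genes) and 12 without Trbp-cKO replicate 2 (3.50%). DESeq2 called 9 lower, where it called 2.23% of genes. Other settings gave 19 with DESeq2 size factors (4.24% of all genes), 20 with total counts (5.33%), 22 with no filter (4.26%), 17 with transcript rows summed (3.56%), 11 of 18 at a mean of at least 5 CPM (4.25%) and 14 with the replicate number as a block (3.22%). No log2 fold change among the 35 turned its sign under any of the 11 alternatives. In the authors' deposited table, 21 of the 35 transcripts had a ratio below 1 at a q-value under 0.05, as did 1.95% of all transcript rows.

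**Figure D1:**
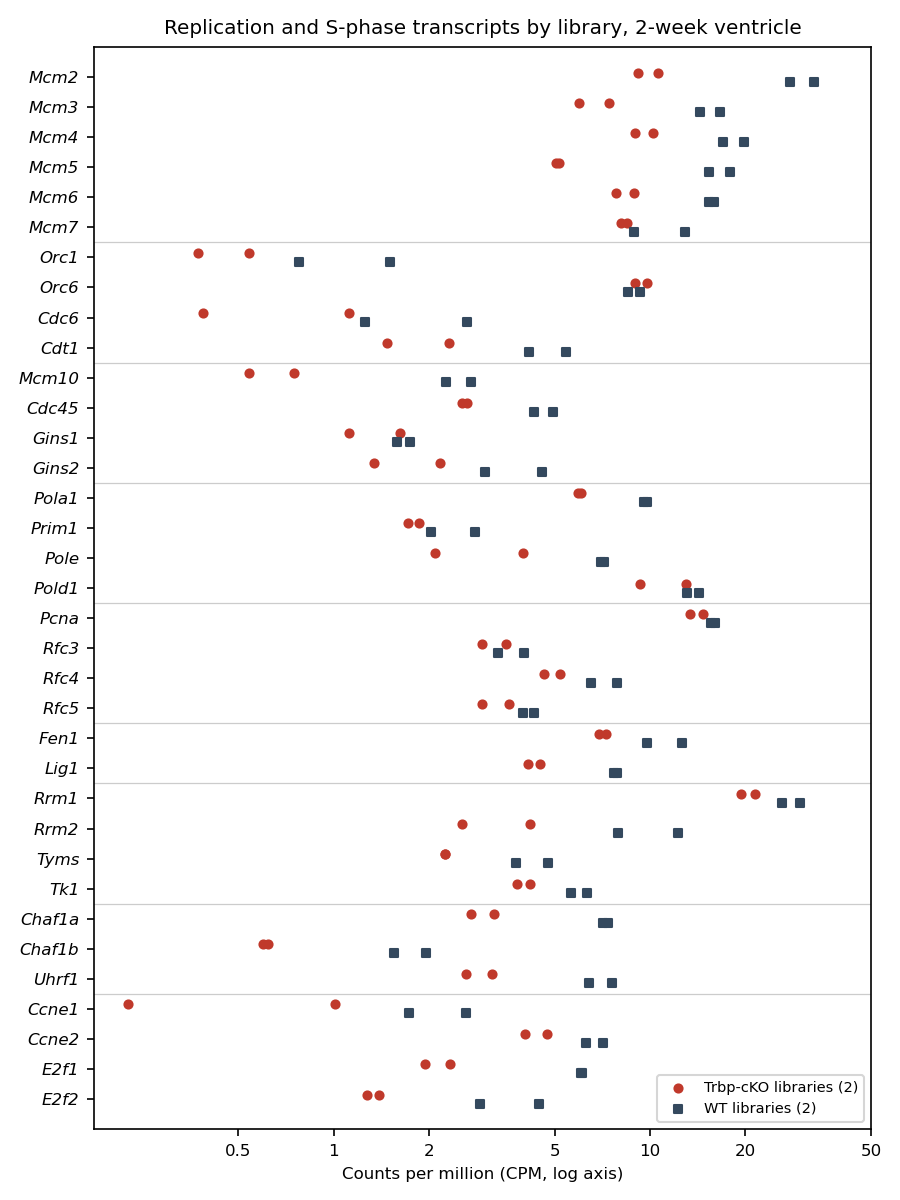
Level of each of the 35 genes in every mRNA library, in CPM on a log axis, with Trbp-cKO libraries as circles and WT libraries as squares; grey lines part the roles. In 32 genes both circles lie to the left of both squares, and Orc6, Gins1 and Rfc3 overlap.

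The helicase ring held the smallest p-values. MCM2 to MCM7 form the hexamer that unwinds DNA at the fork, and 5 of the 6 genes fell. Mcm2 (NM_008564, chr6:88883474-88898780, GRCm38) had 9.14 and 10.6 CPM in the Trbp-cKO libraries, against 27.7 and 32.9 CPM in the WT libraries. The genotypes were far apart, and the fall was 3.06-fold (log2 fold change -1.61 ± 0.14, edgeR adjusted p = 0.000198). Mcm5 (NM_008566, chr8:75109468-75128439) had 5.03 and 5.16 CPM in Trbp-cKO and 15.4 and 17.8 CPM in WT, a fall of 3.25-fold (-1.70 ± 0.16, edgeR adjusted p = 0.000404). Of the 35 genes, Mcm2 and Mcm5 alone were called under all 11 alternatives.

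Mcm3, Mcm4 and Mcm6 also fell. Mcm3 had 5.96 and 7.40 CPM in Trbp-cKO, against 14.3 and 16.6 CPM in WT (-1.20 ± 0.17, edgeR adjusted p = 0.00321). Mcm4 had 8.98 and 10.2 CPM in Trbp-cKO, against 17.0 and 19.8 CPM in WT (-0.93 ± 0.15, edgeR adjusted p = 0.00566). Mcm6 had 7.82 and 8.89 CPM in Trbp-cKO, against 15.4 and 15.9 CPM in WT (-0.90 ± 0.15, edgeR adjusted p = 0.00646). In all 3 genes the libraries of each genotype lay close together and apart from the other genotype. Leaving out WT replicate 2 ended all 3 calls, at 0.0501 to 0.0703 as edgeR's adjusted p, and leaving out WT replicate 1 ended that of Mcm6 (0.0708).

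Mcm7 did not pass. It had 8.44 and 8.07 CPM in the Trbp-cKO libraries, against 8.90 and 12.9 CPM in the WT libraries, so that WT replicate 1 lay close to the Trbp-cKO level (-0.39 ± 0.20, edgeR adjusted p = 0.271). The value was -0.64 without WT replicate 1 and -0.11 without WT replicate 2. Of the counts summed over the 6 ring genes, Mcm7 held 18.6% and 16.0% in Trbp-cKO, against 9.01% and 11.1% in WT. The share of Mcm2 was 20.1% and 21.1% in Trbp-cKO and 28.1% and 28.4% in WT, and that of Mcm5 11.1% and 10.2% in Trbp-cKO and 15.6% and 15.4% in WT. With 2 libraries per genotype the difference in fold change between ring subunits was not tested. The annotated span of Mcm7 overlaps that of Ap4m1, and how the authors counted shared reads is not given in the sources used here. Spans of 11 of the 35 genes overlap another protein-coding gene.

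**Figure D2:**
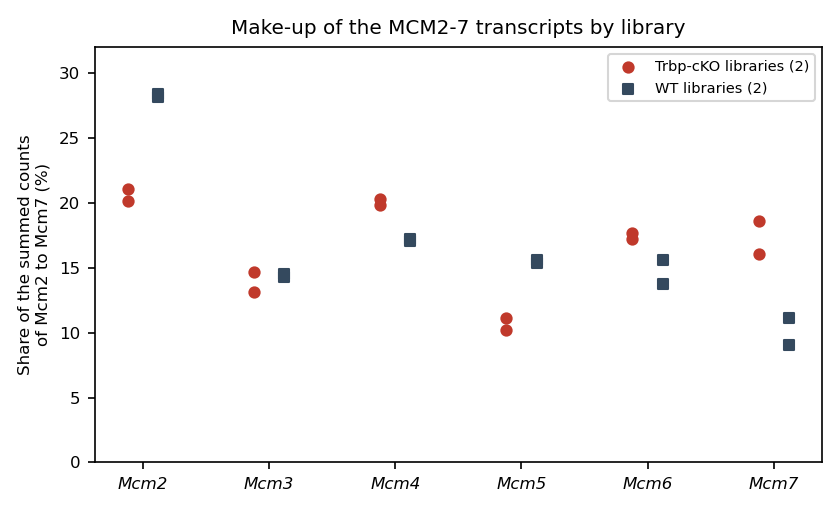
Share of each ring subunit in the counts summed over Mcm2 to Mcm7 (%), for 2 Trbp-cKO libraries (circles) and 2 WT libraries (squares). Mcm2 and Mcm5 took a smaller share, and Mcm4, Mcm6 and Mcm7 a larger share, in both Trbp-cKO libraries than in both WT libraries.

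Of the 4 genes that mark and license origins, only Cdt1 was called. CDT1, with CDC6, brings the MCM ring to the origin. Cdt1 had 1.47 and 2.32 CPM in Trbp-cKO, against 4.15 and 5.43 CPM in WT (-1.32 ± 0.29, edgeR adjusted p = 0.0227). Cdt1 missed the threshold in DESeq2 (adjusted p = 0.113). In edgeR it missed it without Trbp-cKO replicate 1 (adjusted p = 0.0840) or without WT replicate 1 or 2 (0.0924 and 0.192). Cdc6 had 0.387 and 1.12 CPM in Trbp-cKO and 2.64 and 1.26 CPM in WT, so that the libraries of a genotype differed more than 2 times and the value of -1.39 ± 0.55 did not pass (edgeR adjusted p = 0.171). Orc1, the largest subunit of the origin recognition complex, had 7 and 5 counts in Trbp-cKO and 20 and 8 counts in WT, and did not pass (-1.34 ± 0.54, edgeR adjusted p = 0.164). Orc6, the smallest subunit, was at 8.98 and 9.79 CPM in Trbp-cKO and 9.27 and 8.53 CPM in WT (0.07 ± 0.16, edgeR adjusted p = 0.836), and was the only one of the 35 with a value above 0.

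Among helicase activators Mcm10 fell. MCM10 joins the ring when it is activated and is not a ring subunit. It had 0.542 and 0.747 CPM in Trbp-cKO, against 2.26 and 2.71 CPM in WT, the largest fold of the 35 at 3.78-fold lower (-1.92 ± 0.38, edgeR adjusted p = 0.0135). This rests on 7 and 10 counts in Trbp-cKO and 30 and 28 counts in WT, and DESeq2 did not call it (adjusted p = 0.108). Nor did edgeR without Trbp-cKO replicate 1 (adjusted p = 0.0554) or without WT replicate 1 or 2 (0.0965 and 0.134). Cdc45, which completes the active helicase, had 2.63 and 2.54 CPM in Trbp-cKO and 4.30 and 4.94 CPM in WT (-0.83 ± 0.23, edgeR adjusted p = 0.0579), and passed with total count scaling (0.0491), with no filter (0.0358) and with transcript rows summed (0.0317). The GINS subunit Gins2 was at 2.17 and 1.35 CPM in Trbp-cKO and 3.02 and 4.56 CPM in WT (-1.09 ± 0.33, edgeR adjusted p = 0.0761, and 0.0266 with no filter). Its partner Gins1 was at 1.63 and 1.12 CPM in Trbp-cKO and 1.58 and 1.74 CPM in WT, with overlapping genotypes (-0.27 ± 0.36, edgeR adjusted p = 0.708).

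Polymerase genes split. Pole, the catalytic subunit of the leading-strand polymerase, had 2.09 and 3.96 CPM in Trbp-cKO, against 7.16 and 6.98 CPM in WT (-1.22 ± 0.28, edgeR adjusted p = 0.0279). Pola1, the catalytic subunit of the polymerase that starts each new strand, had 6.04 and 5.90 CPM in Trbp-cKO, against 9.80 and 9.60 CPM in WT (-0.70 ± 0.16, edgeR adjusted p = 0.0287). In both genes the genotypes lay apart. Neither passed in DESeq2 (adjusted p = 0.0675 for Pole and 0.252 for Pola1). Dropping Trbp-cKO replicate 1 (edgeR adjusted p from 0.0779 to 0.0889), WT replicate 1 (0.172 to 0.194) or WT replicate 2 (0.142 to 0.169) ended both calls, and dropping Trbp-cKO replicate 2 ended that of Pola1 (0.104). Pold1, the catalytic subunit of the lagging-strand polymerase, was at 13.0 and 9.27 CPM in Trbp-cKO and 14.3 and 13.1 CPM in WT (-0.30 ± 0.18, edgeR adjusted p = 0.366). Prim1, the primase, was at 1.86 and 1.72 CPM in Trbp-cKO and 2.79 and 2.04 CPM in WT (-0.45 ± 0.31, edgeR adjusted p = 0.429).

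No gene of the sliding clamp or its loader passed. PCNA encircles DNA and holds polymerases on the template, and RFC subunits load it. Pcna had 13.3 and 14.6 CPM in Trbp-cKO and 16.0 and 15.6 CPM in WT, so that the genotypes lay next to each other (-0.18 ± 0.13, edgeR adjusted p = 0.472). Rfc4 had 5.19 and 4.63 CPM in Trbp-cKO and 7.84 and 6.49 CPM in WT (-0.55 ± 0.19, edgeR adjusted p = 0.114). Rfc5 was at -0.34 ± 0.23 and Rfc3, whose genotypes overlapped, at -0.18 ± 0.24. The annotated span of Rfc4 overlaps that of Eif4a2.

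Fen1 and Lig1, which trim and seal Okazaki fragments, stood on either side of the threshold. Lig1 had 4.49 and 4.11 CPM in Trbp-cKO, against 7.69 and 7.85 CPM in WT (-0.85 ± 0.18, edgeR adjusted p = 0.0194). Fen1 had 6.89 and 7.25 CPM in Trbp-cKO, against 9.80 and 12.6 CPM in WT (-0.66 ± 0.18, edgeR adjusted p = 0.0516). Fen1 passed with DESeq2 size factors (edgeR adjusted p = 0.0494), total count scaling (0.0441) and no filter (0.0220). Lig1 did not pass with DESeq2 (adjusted p = 0.192), without Trbp-cKO replicate 1 or 2 (edgeR adjusted p = 0.0516 and 0.0905) or without WT replicate 1 or 2 (0.132 and 0.139).

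Of the 4 genes that supply deoxynucleotides, 3 fell. Rrm2, the small subunit of ribonucleotide reductase that is made in S phase, had 4.18 and 2.54 CPM in Trbp-cKO, against 7.92 and 12.2 CPM in WT, a fall of 2.97-fold (-1.57 ± 0.30, edgeR adjusted p = 0.0224). Rrm1, the large subunit, had 21.5 and 19.4 CPM in Trbp-cKO and 29.8 and 26.1 CPM in WT (-0.46 ± 0.11, edgeR adjusted p = 0.0295). Tyms, the thymidylate synthase, had 2.25 and 2.24 CPM in Trbp-cKO, against 4.75 and 3.78 CPM in WT (-0.93 ± 0.25, edgeR adjusted p = 0.0485). Tk1, the S-phase thymidine kinase, had 3.79 and 4.19 CPM in Trbp-cKO and 6.33 and 5.62 CPM in WT and did not pass (-0.59 ± 0.20, edgeR adjusted p = 0.109). None of the 3 calls held with WT replicate 2 left out (edgeR adjusted p from 0.105 to 0.127), and leaving out WT replicate 1 ended those of Rrm1 and Tyms (0.248 to 0.293). Tyms also failed without Trbp-cKO replicate 1 (edgeR adjusted p = 0.118), Rrm1 and Tyms without Trbp-cKO replicate 2 (0.117 to 0.126) and in DESeq2 (adjusted p from 0.208 to 0.410), and Rrm1 with transcript rows summed (edgeR adjusted p = 0.0506).

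All 3 genes that rebuild chromatin behind the fork fell. Chaf1a, the large subunit of the histone chaperone CAF-1, had 2.71 and 3.21 CPM in Trbp-cKO, against 7.09 and 7.37 CPM in WT (-1.28 ± 0.21, edgeR adjusted p = 0.00517). Chaf1b, its middle subunit, had 8 and 8 counts in Trbp-cKO, against 26 and 16 counts in WT (-1.53 ± 0.41, edgeR adjusted p = 0.0463). Uhrf1, which brings the maintenance DNA methyltransferase to new DNA, had 3.17 and 2.62 CPM in Trbp-cKO, against 6.41 and 7.56 CPM in WT (-1.26 ± 0.22, edgeR adjusted p = 0.00747). In each of the 3 both WT libraries stood above both Trbp-cKO libraries. Dropping WT replicate 1 (edgeR adjusted p from 0.0580 to 0.302) or WT replicate 2 (0.0686 to 0.165) ended all 3 calls. The Chaf1b call also ended in DESeq2 (adjusted p = 0.423), and in edgeR when Trbp-cKO replicate 1 or 2 was dropped (adjusted p = 0.131 and 0.144) or transcript rows were summed (0.0656).

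Both E2F genes of the list fell, and neither cyclin E gene passed. E2f1, an activator of replication genes, had 2.32 and 1.94 CPM in Trbp-cKO, against 6.03 and 6.11 CPM in WT, a fall of 2.84-fold (-1.51 ± 0.23, edgeR adjusted p = 0.00398). E2f2, a second activator, had 1.39 and 1.27 CPM in Trbp-cKO, against 4.45 and 2.91 CPM in WT (-1.48 ± 0.32, edgeR adjusted p = 0.0205). Leaving out WT replicate 1 (edgeR adjusted p from 0.0583 to 0.215) or WT replicate 2 (0.0539 for both) ended both calls. The E2f2 call also ended in DESeq2 (adjusted p = 0.134) and when Trbp-cKO replicate 2 was dropped (0.0612 in edgeR). Cyclin E activates CDK2 at the G1/S boundary. Ccne1 had 13 and 3 counts in Trbp-cKO and 23 and 27 counts in WT at -1.80 ± 0.56 (edgeR adjusted p = 0.0914). Dropping Trbp-cKO replicate 1 gave -3.20 (0.0171), dropping Trbp-cKO replicate 2 gave -1.08, and with no filter the adjusted p was 0.0349. Ccne2 had 4.72 and 4.04 CPM in Trbp-cKO and 6.26 and 7.08 CPM in WT (-0.60 ± 0.20, edgeR adjusted p = 0.0948).

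**Figure D3:**
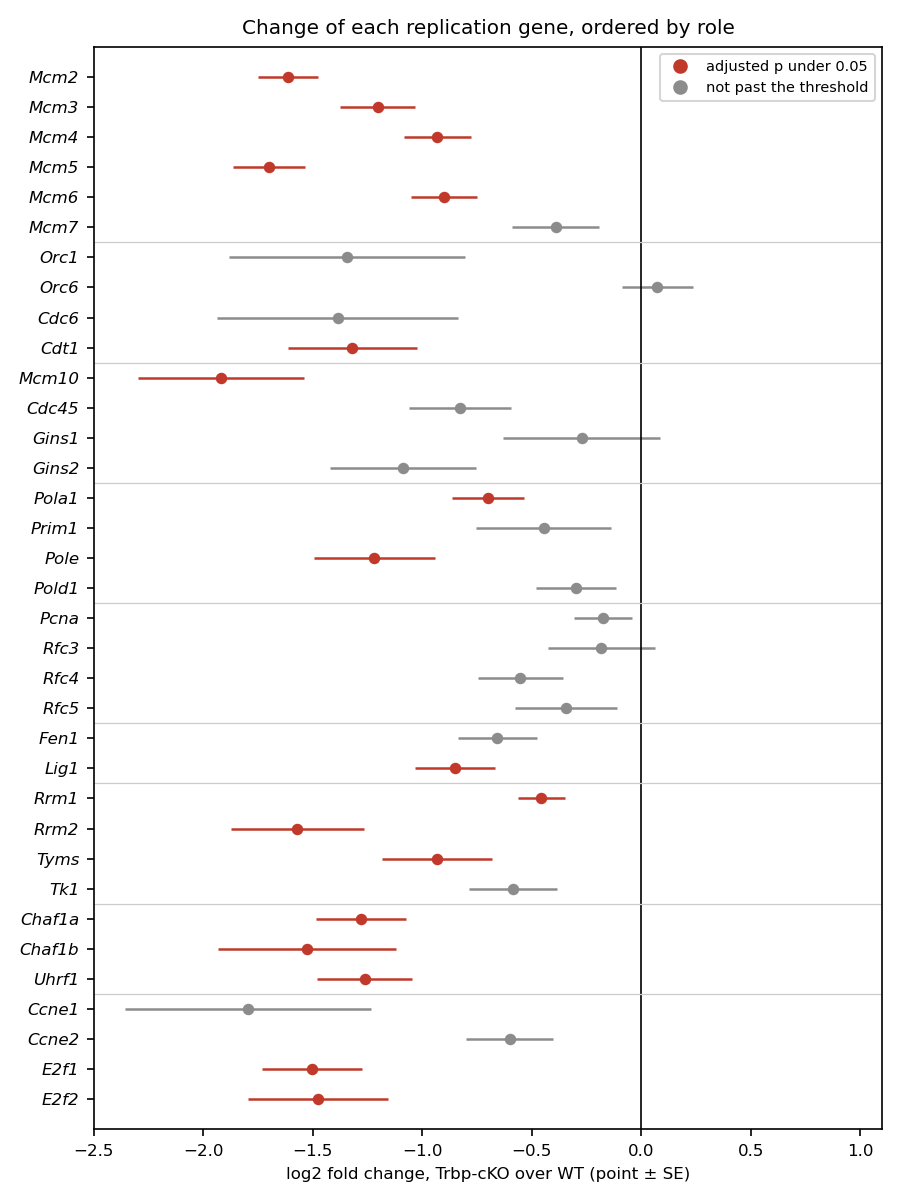
The log2 fold change of Trbp-cKO over WT for each of the 35 genes, with its standard error as the bar; red points were called and grey points were not. Values run from -1.92 for Mcm10 to 0.07 for Orc6, and no gene of the clamp and its loader is red.

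The promoters of these genes were searched for a word bound by E2F proteins. The choice of genes used function and no promoter sequence. Since most of these genes are E2F targets, the share with this word describes the list and is not independent of that choice. RefSeq windows of GRCm38.p6, from 250 bases before to 50 after an annotated start, were found for 30 of the 35 genes, and Mcm4, Gins1, Gins2, Pole and Ccne2 had no entry. An E2F octamer, written TTTCCCGC, TTTCGCGC, TTTGCCGC or TTTGGCGC and searched on both strands, lay in 13 of 36 windows (36.1%), against 2.26% of all 32851 windows and 3.79% of the windows of tested genes. The windows of the 5 genes with the smallest p among those that hold it are shown, 5′ to 3′ on the strand of the gene, with the octamers in capitals.
Mcm5, chr8:75109259-75109558, plus strand: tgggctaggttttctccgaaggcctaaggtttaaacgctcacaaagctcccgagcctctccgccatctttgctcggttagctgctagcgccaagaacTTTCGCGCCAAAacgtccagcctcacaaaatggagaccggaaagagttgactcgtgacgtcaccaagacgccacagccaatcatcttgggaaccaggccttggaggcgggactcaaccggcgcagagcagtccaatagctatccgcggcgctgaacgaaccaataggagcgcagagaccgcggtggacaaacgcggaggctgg
Mcm3, chr1:20820263-20820562, minus strand: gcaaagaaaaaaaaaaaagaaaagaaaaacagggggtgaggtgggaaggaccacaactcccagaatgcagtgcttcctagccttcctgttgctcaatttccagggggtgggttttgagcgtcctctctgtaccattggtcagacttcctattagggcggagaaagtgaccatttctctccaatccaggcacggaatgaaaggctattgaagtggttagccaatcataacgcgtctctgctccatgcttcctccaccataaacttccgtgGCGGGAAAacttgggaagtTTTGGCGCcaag
Mcm6, chr1:128359656-128359955, minus strand: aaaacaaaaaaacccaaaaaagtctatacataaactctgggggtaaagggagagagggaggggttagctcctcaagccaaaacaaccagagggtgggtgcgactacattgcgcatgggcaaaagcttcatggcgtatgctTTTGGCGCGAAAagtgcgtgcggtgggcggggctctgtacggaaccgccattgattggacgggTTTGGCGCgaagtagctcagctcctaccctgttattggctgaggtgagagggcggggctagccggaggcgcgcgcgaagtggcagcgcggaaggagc
Uhrf1, chr17:56304063-56304362, plus strand: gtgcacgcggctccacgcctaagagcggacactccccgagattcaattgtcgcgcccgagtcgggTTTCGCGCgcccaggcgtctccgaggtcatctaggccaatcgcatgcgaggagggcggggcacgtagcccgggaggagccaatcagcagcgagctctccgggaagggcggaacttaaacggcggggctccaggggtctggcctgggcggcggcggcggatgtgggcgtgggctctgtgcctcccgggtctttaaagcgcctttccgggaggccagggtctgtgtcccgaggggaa
Lig1, chr7:13278576-13278875, plus strand: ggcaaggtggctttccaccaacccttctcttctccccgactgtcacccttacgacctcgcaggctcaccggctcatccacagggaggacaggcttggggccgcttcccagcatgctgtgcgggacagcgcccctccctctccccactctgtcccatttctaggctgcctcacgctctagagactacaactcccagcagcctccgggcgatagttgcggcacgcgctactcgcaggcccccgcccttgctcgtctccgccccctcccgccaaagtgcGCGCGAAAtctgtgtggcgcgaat
In Mcm5 the octamers overlap and start 153 and 149 bases before the annotated start, in Mcm6 the 3 octamers start from 110 to 47 bases before it, and in Uhrf1 185 bases before it. In Mcm3 they start 19 and 38 bases after the start, and in Lig1 26 bases after it. Uhrf1 had 2 windows and Lig1 had 3, and in each gene only the window shown held an octamer. Of 13 genes with an octamer 8 fell (median log2 fold change -1.20), and of 17 genes without it 8 fell (-0.83), a difference that was not tested. The gene with the smallest p, Mcm2, held no octamer in its window, and Mcm7 and Rfc3, which did not pass, held 2 each.

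Mitotic genes were lower as well. Of 20 mitotic genes 19 fell and none rose, where 4.20% of all tested genes were called lower. The median of the 20 was -1.79, with values from -2.71 to -0.70. The difference of that median from the -0.93 of the replication genes was not tested. The count of 19 was smaller without WT replicate 1 and without WT replicate 2, and so was the number of all tested genes called lower. It was 15 in DESeq2 (2.23% of all genes called lower), and 7 of the 7 then tested at a mean of at least 5 CPM (4.25%). Mki67, the proliferation marker, had 13.4 and 12.6 CPM in Trbp-cKO and 45.8 and 51.9 CPM in WT, and Top2a, the topoisomerase of dividing cells, 5.19 and 7.25 CPM in Trbp-cKO and 23.9 and 23.9 CPM in WT. Prc1 and Kif11, which work on the mitotic spindle, were at -1.77 ± 0.19 and -1.81 ± 0.20. In all 20 genes both Trbp-cKO libraries lay below both WT libraries, a pattern found in 27.1% of all tested genes. The promoters were searched for other words too. The hexamer TTTGAA of the CHR element, on either strand, lay in 72.2% of 18 mitotic windows and 11.1% of the 36 replication windows. It lay in 17.9% of all windows and in 11.9% of the windows of tested genes, close to the share of the replication windows. A CCAAT box, on either strand, lay in 83.3% of mitotic windows and 58.3% of replication windows. Its share was 37.4% of all windows and 37.3% of the windows of tested genes. Of mitotic windows 5.56% held an E2F octamer.

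Few of the remaining replication subunits passed. Over all tested genes 4.20% were called lower and 5.17% higher. Of 38 tested genes of the remaining replication machinery 3 fell and none rose, with a median of -0.23. They were Gmnn, the inhibitor of CDT1 (8.91 and 7.47 CPM in Trbp-cKO, 14.6 and 15.1 CPM in WT), Clspn, a fork protector that links to the checkpoint (0.697 and 1.27 CPM in Trbp-cKO, 2.94 and 3.88 CPM in WT), and Topbp1, an initiation and checkpoint scaffold (-0.49 ± 0.09 on the log2 scale). Of 15 further nucleotide supply genes 3 fell, namely Shmt1 (-1.47 ± 0.18), which feeds thymidylate synthesis, Dck (-0.88 ± 0.16) and Ctps (-0.46 ± 0.08). Of 10 further chromatin genes 4 fell. These were Dnmt1, the maintenance DNA methyltransferase (-0.40 ± 0.09), Hells (-1.14 ± 0.30), Cdca7 (-0.97 ± 0.26) and Atad2 (-0.66 ± 0.16). Of 18 checkpoint and repair genes 5 fell, among them Brca1, Brca2 and Blm at -1.61, -1.01 and -0.95. Shmt1 alone of these named genes was called under every alternative that tested it.

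Regulators of the G1 to S step moved in both directions. Of 16 E2F and pocket protein genes 3 fell and 2 rose, beside 4.20% lower and 5.17% higher over all tested genes. The median of the 16 was -0.12. Tfdp2, a dimerization partner of E2F proteins, was at 244 and 218 CPM in Trbp-cKO, against 106.4 and 115 CPM in WT, so that both Trbp-cKO libraries stood far above WT (1.06 ± 0.08, edgeR adjusted p = 8.6e-05). Lin52, a subunit of the DREAM and MuvB complexes, rose by 0.66 ± 0.17. The genes that fell were E2f7, an atypical E2F that represses (-1.16 ± 0.24), the pocket protein gene Rbl1 (-0.87 ± 0.20) and E2f3 (-0.52 ± 0.12). Of 14 tested cyclin, kinase and inhibitor genes 3 fell and 1 rose. Ccna2, the S-phase cyclin, had 6.66 and 6.88 CPM in Trbp-cKO, against 18.1 and 18.9 CPM in WT (-1.45 ± 0.15, edgeR adjusted p = 0.000550). Ccnd1, the G1 cyclin, had 55.2 and 71.2 CPM in Trbp-cKO, against 134 and 117 CPM in WT (-0.99 ± 0.14), and Cdk6, its kinase partner, was at -1.02 ± 0.18. Cdkn1b, which encodes the CDK inhibitor p27, had 65.8 and 67.6 CPM in Trbp-cKO, against 53.2 and 54.6 CPM in WT (0.31 ± 0.07, edgeR adjusted p = 0.0298). Of the genes named from these cell-cycle lists, 7 were called under every alternative that tested them, namely Shmt1, Tfdp2, Ccna2, Mki67, Top2a, Prc1 and Kif11. The other calls were lost under 1 or more, with adjusted p from 0.0532 to 0.407. All of these were lost without WT replicate 1, and all but Ccnd1 without WT replicate 2. Without Trbp-cKO replicate 1 the calls of Clspn, Atad2, Hells, Cdca7, E2f7, Rbl1, E2f3, Lin52, Cdkn1b, Brca2 and Blm were lost, and without Trbp-cKO replicate 2 those of Dnmt1, Hells, Cdca7, Rbl1, E2f3, Lin52 and Cdkn1b. Total count scaling also ended the call of Cdkn1b (edgeR adjusted p = 0.0532). With transcript rows summed, Hells, Cdca7 and Lin52 were not called. DESeq2 did not call Topbp1, Clspn, Dnmt1, Atad2, Hells, Cdca7, E2f7, Rbl1, E2f3, Lin52, Cdkn1b, Brca1, Brca2 or Blm (adjusted p from 0.0706 to 0.407).

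**Figure D4:**
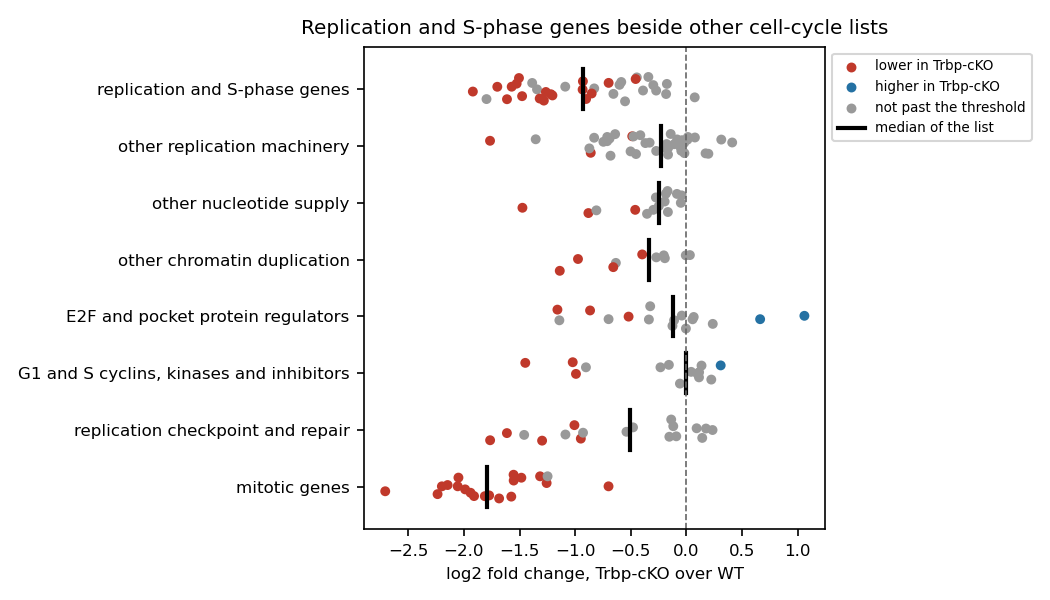
Each point is the log2 fold change of a tested gene, Trbp-cKO over WT, in the replication and S-phase list and 7 other cell-cycle lists; the black bar is the median of the list. Medians are -0.93 for the replication genes and -1.79 for the mitotic genes, and lie between -0.51 and -0.01 for the other lists.

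The small RNA libraries hold the products of hairpins that lie within a replication gene. Whether such products follow the level of their host gene was not tested. Mcm7 (chr5:138164583-138172111, GRCm38) carries the miRNA hairpins Mir106b, Mir93 and Mir25 within its span. The mature arms, from RefSeq for GRCm38.p6, are shown 5′ to 3′ with the seed, bases 2 to 8, in capitals, to show that miR-106b-5p and miR-93-5p share theirs.
miR-106b-5p: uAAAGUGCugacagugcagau
miR-93-5p: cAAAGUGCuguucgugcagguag
miR-106b-3p: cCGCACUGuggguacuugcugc
miR-25-3p: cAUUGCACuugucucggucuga
The small RNA is from postnatal day 2.5 and the mRNA from 2 weeks, so their levels are given side by side and not compared.

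Of the 6 arms of these hairpins 1 fell, where 10.5% of 401 tested arms were called lower and 6.23% higher. miR-106b-5p had 156, 159 and 183 CPM in the Trbp-cKO libraries, against 313, 361 and 375 CPM in the WT libraries. The fall was 2.11-fold (-1.08 ± 0.14, edgeR adjusted p = 0.000195), a call kept under all 11 alternatives. The miR-106b-5p libraries parted by genotype, and so did those of miR-106b-3p, miR-93-5p and, with Trbp-cKO above WT, miR-25-3p. The share of all arms that part in this way was not counted. The arm opposite miR-106b-5p, miR-106b-3p, had 110.1, 111 and 89.8 CPM in Trbp-cKO and 149, 141 and 118 CPM in WT and did not pass (-0.39 ± 0.16, edgeR adjusted p = 0.118).

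No arm of the neighbouring hairpins passed. miR-93-5p had 1397, 1422 and 1395 CPM in Trbp-cKO, against 1530, 1686 and 1743 CPM in WT, and did not pass (-0.23 ± 0.10, edgeR adjusted p = 0.155), except without WT replicate 1 (0.0397). miR-25-3p had 4184, 3875 and 4235 CPM in Trbp-cKO, against 3572, 3763 and 3385 CPM in WT (0.20 ± 0.10, edgeR adjusted p = 0.270). The minor arms miR-93-3p and miR-25-5p averaged 24.6 ± 2.63 and 14.9 ± 3.0 CPM in Trbp-cKO and 27.2 ± 5.41 and 14.3 ± 2.59 CPM in WT (SD, n = 3 each), within their spread. Within a library, the log2 ratio of miR-106b-5p over miR-93-5p was -3.16, -3.17 and -2.93 in Trbp-cKO and -2.29, -2.22 and -2.22 in WT. The difference of -0.84 had a two-sided exact permutation p of 0.1, the smallest that 3 against 3 allows. The 5p arm held 58.7%, 58.9% and 67.1% of the Mir106b counts in Trbp-cKO, against 67.8%, 71.9% and 76.0% in WT, also at an exact permutation p of 0.1. Both ratios use miR-106b-5p, the arm called in these same libraries, so neither is independent of that call. Of other arms with the same seed as miR-106b-5p, chosen after their values were seen, miR-17-5p was at -0.24 ± 0.13 and miR-20a-5p at -0.18 ± 0.12, and neither passed (edgeR adjusted p = 0.261 and 0.413).

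**Figure D5:**
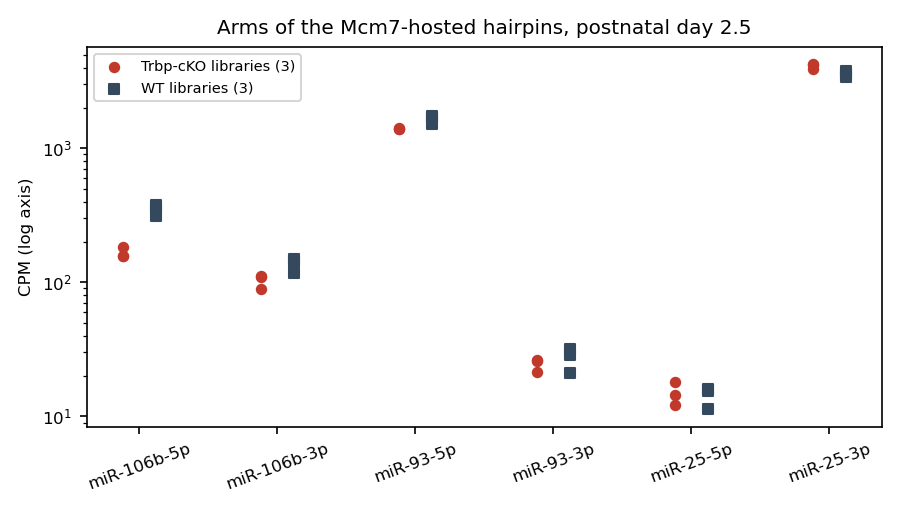
Level of the 6 arms of the hairpins within Mcm7 in each small RNA library, in CPM on a log axis, for 3 Trbp-cKO libraries (circles) and 3 WT libraries (squares). The libraries of miR-106b-5p part by genotype, from 156 to 183 CPM in Trbp-cKO and from 313 to 375 CPM in WT. Those of miR-106b-3p, miR-93-5p and miR-25-3p part too, with miR-25-3p higher in Trbp-cKO, but these arms were not called. How many of all arms part in this way was not counted. The minor arms miR-93-3p and miR-25-5p overlap.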

How the data were processed

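Per the labels' protocols, ventricle RNA was extracted with Trizol and sequenced from Illumina TruSeq RNA and TruSeq Small RNA libraries. Tools listed in the submitters' processing notes, without their roles, are Bowtie 0.12.9, SAMtools 0.1.16, cutadapt 0.9.5, CASAVA 1.8.2 and edgeR, and the genome build is mm10. How reads were counted, and whether by strand, is not stated there. Raw counts were deposited by the authors for RefSeq transcripts and for the arms of miRNA hairpins (whole numbers with unequal totals), and, per the file headers, a q-value and a fold ratio (Trbp-cKO to WT) per transcript, which entered no test. Age follows the labels.

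Of 30635 transcript rows, 30016 matched RefSeq accessions of GRCm38.p6, the assembly behind mm10. That table named 3793 of 3903 rows with a blank symbol, and 110 unnamed rows (0.117% to 0.140% of a library's counts) were left out. Lig1 takes its value from a row named in this way. The transcript with the highest total count stood for each of 23360 genes. Transcript lengths were not at hand, so that levels were not compared between genes, and shares within the MCM ring are of counts.

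Counts were tested in R 4.3.3 with edgeR 4.0.16 (filterByExpr, TMM, robust glmQLFit, glmQLFTest, Benjamini-Hochberg over all 13625 genes or 401 arms), each assay alone, with genotype as the only term. Each SE was taken as the absolute log2 fold change divided by the root of its F value. The scripts were tested on simulated data. Alternatives were other scalings, other filters, DESeq2 1.42.0, summed transcript rows, a replicate block and each library left out. With a lone library in a genotype, that library is assumed to vary like the others. Replicates differed by more than counting noise in every pair. Same-numbered libraries were not taken as pairs: the labels do not say what a number marks.

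The 35 genes and all lists were chosen with earlier results of these data known. All 35 genes are named. Of each other list up to 4 called genes per direction with the smallest p are named, except 1 that is not reported here. For marker lists only those a result touches are named.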

Additional observations from a re-analysis of the deposited data

How the results depend on the processing

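The direction of each of the 35 genes held under the 11 alternatives, and the calls of Mcm2 and Mcm5 held under each. The number of replication genes that fell was 18 of 35. It was 19 with DESeq2 size factors, 20 with total counts, 22 with no filter and 17 with transcript rows summed. At a mean of at least 5 CPM it was 11, since only 18 of the genes were then tested, and their median was -0.79. DESeq2 called 9 of the replication genes, and 310 lower and 437 higher of all genes, against 572 and 705 in edgeR; the cause was not tested. Leaving out 1 library gave 2 to 12 replication genes that fell, 131 to 487 genes lower and 144 to 684 higher over all genes. With the replicate number as a block 14 replication genes fell, and Pola1, Rrm2, Tyms and Chaf1b lost their calls (edgeR adjusted p from 0.0531 to 0.0806). Among the other named genes the block ended the calls of Hells, Cdca7, E2f3 and Lin52, and of the markers Myl2, Ryr2, Tnnt2, Ttn, Tek, Col1a1, Col3a1, Postn and Hbb-bt (0.0506 to 0.151). Deviations of same-numbered mRNA libraries correlated at 0.168, and those of small RNA libraries at 0.114, 0.0958 and 0.0445, and no pairing is known.

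Among small RNA arms, leaving out 1 library gave 30 to 65 arms lower and 16 to 51 higher, against 42 and 25, and 1 to 2 arms of the hairpins within Mcm7 lower. The value of miR-25-5p, 0.07, ran from -0.094 (without Trbp-cKO replicate 1) to 0.20 over these fits, and was -0.078 without WT replicate 3. Depth limits Orc1, Cdc6, Mcm10, Gins1, Prim1, Chaf1b and Ccne1, whose CPM rest on few counts in each library.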
